A study of Mus musculus with 4 samples.

Results

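The comparison described here sets 4D9, a monoclonal antibody to the microglial receptor Trem2, against an isotype control antibody in mice with amyloid pathology. Its members were taken from the group column of the deposited cell annotation. They are the 4 AppSAA mice given 4D9 without a transport vehicle and the 4 AppSAA mice given the isotype control, 8 of 20 mice and 32502 of 74758 cells. Both groups are recorded as male and carried the AppSAA allele and the TfRmu/hu allele, each homozygous (hTfR KI HOM, APP-SAA HOM in the annotation). According to the reporting summary such mice were 8 months old and on C57BL/6J. Each mouse had received 1 dose of 10 mg kg−1 and was sampled 1 day (24 h) later. The 4 pools of the sequencing run each held 1 mouse of every group, so each 4D9 mouse has an isotype mouse of its own pool. The 3 other groups were AppSAA mice given ATV:4D9 and WT mice given ATV:4D9 or the isotype, also 4 mice each and TfRmu/hu homozygous.

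The control limits what the comparison can say. The isotype arm is labelled ATV-DNP02, and its annotation names a huIgG1 ATV LALA antibody, so the control carries the transport vehicle (ATV), an Fc part that binds the human transferrin receptor and moves antibodies across the blood-brain barrier. The 4D9 arm lacks it and is annotated as hIgG1-LALAPG. Binding to Trem2, binding to the transferrin receptor and the Fc mutations therefore changed together between the groups and cannot be told apart. AppSAA is an App knock-in with 3 pathogenic mutations of human amyloid precursor protein, and no AppSAA mouse without antibody was included. The labels of the series disagree on the sort (Cd11b alone or with Cd45) and on the tissue (cortex, or cortex with hippocampus).

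Trem2 is a lipid-sensing receptor of microglia that signals through the adaptor Tyrobp (DAP12) and the kinase Syk to phospholipase Plcg2. In amyloid models it is needed for microglia to move from the homeostatic state, marked by P2ry12, Tmem119 and Cx3cr1, to a disease-associated state with high Apoe, Cst7, Itgax, Clec7a and Lpl. Antibodies that cross-link Trem2 can raise this signalling, provided that enough of them reach the brain.

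The cells of both groups were microglia by their markers. The summed level of 8 microglia identity genes was 16890 to 17210 CPM (UMIs of a gene scaled to the library total, normalized by TMM for single genes) in the 4D9 mice and 15170 to 18300 CPM in the isotype mice. In 2 of the 32502 cells a list of another cell type held more unique molecular identifiers (UMIs, counted RNA molecules) than the microglia list. The lists of neurons (0.348 to 0.852 CPM over both groups) and of T and NK cells (1.44 to 2.46 CPM) were near 0. Monocyte markers summed to 4.09 to 10.3 CPM, neutrophil markers to 6.02 to 20.2 CPM, and the lists of astrocytes (75.6 to 112 CPM), oligodendrocytes (51.1 to 64.2 CPM) and vessel cells (37.5 to 52.5 CPM) overlapped between the groups. B cell markers summed to 230.0 to 268.5 CPM, of which Ighm, an immunoglobulin heavy chain gene, made up 211.5 to 248.9 CPM. Border macrophage markers summed to 17.8 to 30.8 CPM with 4D9 and 12 to 26.1 CPM with the isotype. Depth was 27526806 to 74456342 UMIs and 2747 to 6126 cells per mouse, with fewer cells in the 4D9 mouse than in the isotype mouse of each pool. Among the cells of both groups, 113 cell barcodes occurred in more than 1 pool. Of the 20 mice 1 WT isotype mouse of pool 4 is recorded as female, and the 4D9 and isotype AppSAA mice of that pool, recorded as male, held 7.84 and 6.79 CPM of the female-specific RNA Xist, against at most 0.266 CPM in the other pools. In that female mouse 85.8% of the cells held 5 or more Xist UMIs, as did 15 of 3266 cells (0.459%) of the 4D9 mouse and 11 of 5471 (0.201%) of the isotype mouse of pool 4 and 0 cells of either group in the other pools. Most other positive cells of those 2 mice held 1 UMI (173 and 318 cells). Whether these cells were assigned to the wrong mouse of pool 4 was not tested, and exchange among its male mice cannot be seen this way.

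Over all cells of a mouse, 1 day after a dose, no gene passed the test of 4D9 against isotype mice. Of 14207 genes tested, 0 had an adjusted p under 0.05 (0% called, edgeR quasi-likelihood test with the pool as a block, Benjamini-Hochberg adjustment), and 277 (1.95%) had an unadjusted p under 0.05. DESeq2 and limma-voom also called 0 genes, with 208 and 227 at an unadjusted p under 0.05. Among 7872 genes with a mean of at least 10 CPM, the 95% interval of the fold change had a median half-width of 0.11 on the log2 scale and lay wholly within a 1.5-fold change in either direction for 7816 genes (99.3%). The absolute log2 fold change was under 0.25 for 99.5% of these genes, with a median of 0.025. In 101 of the 14207 genes (0.711%) the levels of the 4 4D9 mice did not overlap those of the 4 isotype mice. In these sums over all cells, fewer cells of a type and less RNA per cell cannot be told apart.

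Trem2, Tyrobp, Syk and Plcg2 had small differences with narrow intervals. Trem2 (chr17:48346401-48354147 in GRCm38, plus strand) stood at 5163, 4800, 4599 and 4359 CPM in the 4D9 mice of pools 1 to 4 and at 4910, 5242, 4424 and 4079 CPM in the isotype mice. The groups overlapped, and pool 4 was lowest in both. The log2 fold change of 4D9 over isotype was 0.024 ± 0.058 (SE, n = 4 mice a group), with a 95% interval of -0.097 to 0.14 and an adjusted p of 0.9999 in edgeR. Tyrobp had a log2 fold change of 0.026 (interval -0.10 to 0.15), Syk of 0.061 (-0.059 to 0.18) and Plcg2 of -0.0019 (-0.078 to 0.074). None of the 24 genes listed for the receptor and its proximal signalling was called, and their median log2 fold change was -0.0076, against 0.00048 over all genes tested.

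The target of the transport vehicle was examined next, since only the isotype carries it. Tfrc, the transferrin receptor gene, read 5.38, 5.55, 6.16 and 7.69 CPM in the 4D9 mice and 5.41, 6.79, 6.74 and 7.56 CPM in the isotype mice. The groups overlapped and the log2 fold change was -0.096 ± 0.10 (SE), adjusted p 0.9999 in edgeR. Trf, which encodes the iron carrier transferrin, differed by 0.018 on the log2 scale (interval -0.099 to 0.13). Of 14 measured genes of iron handling, 0 were called and the median was 0.018. Hmox1, heme oxygenase, was the member with the smallest p. It stood at 62.4, 57.4, 53.8 and 46.9 CPM with 4D9 and at 49.7, 47.6, 40.8 and 45.5 CPM with the isotype. Each 4D9 mouse was above the isotype mouse of its pool, the groups overlapped, and the log2 fold change of 0.26 ± 0.098 (SE) had an unadjusted p of 0.0174 and an adjusted p of 0.9999 in edgeR.

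The growth factor receptor Csf1r, on which microglial survival depends, had 2371, 2135, 2092 and 2159 CPM with 4D9 and 2417, 2041, 2116 and 2196 CPM with the isotype, a log2 fold change of -0.0014 (interval -0.086 to 0.083). Csf1, its ligand, had a log2 fold change of 0.039 (interval -0.13 to 0.21).

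Genes of the homeostatic and disease-associated states did not pass the test either. P2ry12, a purinergic receptor of resting microglia, was at 1626, 1598, 1569 and 1645 CPM with 4D9 and at 1681, 1512, 1622 and 1805 CPM with the isotype, a log2 fold change of -0.042 ± 0.098 (SE). The 4D9 mice lay inside the range of the isotype mice. Tmem119 and Cx3cr1 had log2 fold changes of -0.0097 and -0.024. Over 18 homeostatic genes 0 were called and the median was -0.021. Apoe, a lipid carrier, read 11140, 9059, 11790 and 9550 CPM with 4D9 and 8312, 10400, 9646 and 8045 CPM with the isotype, higher with 4D9 in 3 of 4 pools, and its log2 fold change was 0.20 ± 0.19 (SE, interval -0.20 to 0.61). With 1 mouse left out it ran from 0.0081 to 0.30. Spp1, a secreted matrix protein, ranged from 737 to 1121 CPM with 4D9 and from 410 to 1207 CPM with the isotype, with an interval of -1.04 to 1.04 that includes a 2-fold change in either direction. The lysosomal and phagocytic members Cst7 (0.057), Clec7a (0.015), Itgax (0.038), Gpnmb (0.17) and the lipase Lpl (-0.079) also had intervals that included 0. Of 30 genes of this list 0 were called, 23 had a log2 fold change above 0, and the median was 0.028. Among all genes tested 50.4% were above 0. The median within pools was 0.088, -0.12, 0.054 and 0.081, and with 1 mouse left out it ran from -0.0018 without the isotype mouse of pool 4 to 0.086 without that of pool 2. In clusters 2 and 4, 25 and 22 of the 30 were below 0. In clusters 0, 1, 3 and 5, 17, 21, 25 and 19 were above 0, and 0 were called in any of the 6 clusters. In cluster 3, 5 of the 30 had an unadjusted p under 0.05 in edgeR, beside 2.62% of all genes tested there.

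**Figure D1:**
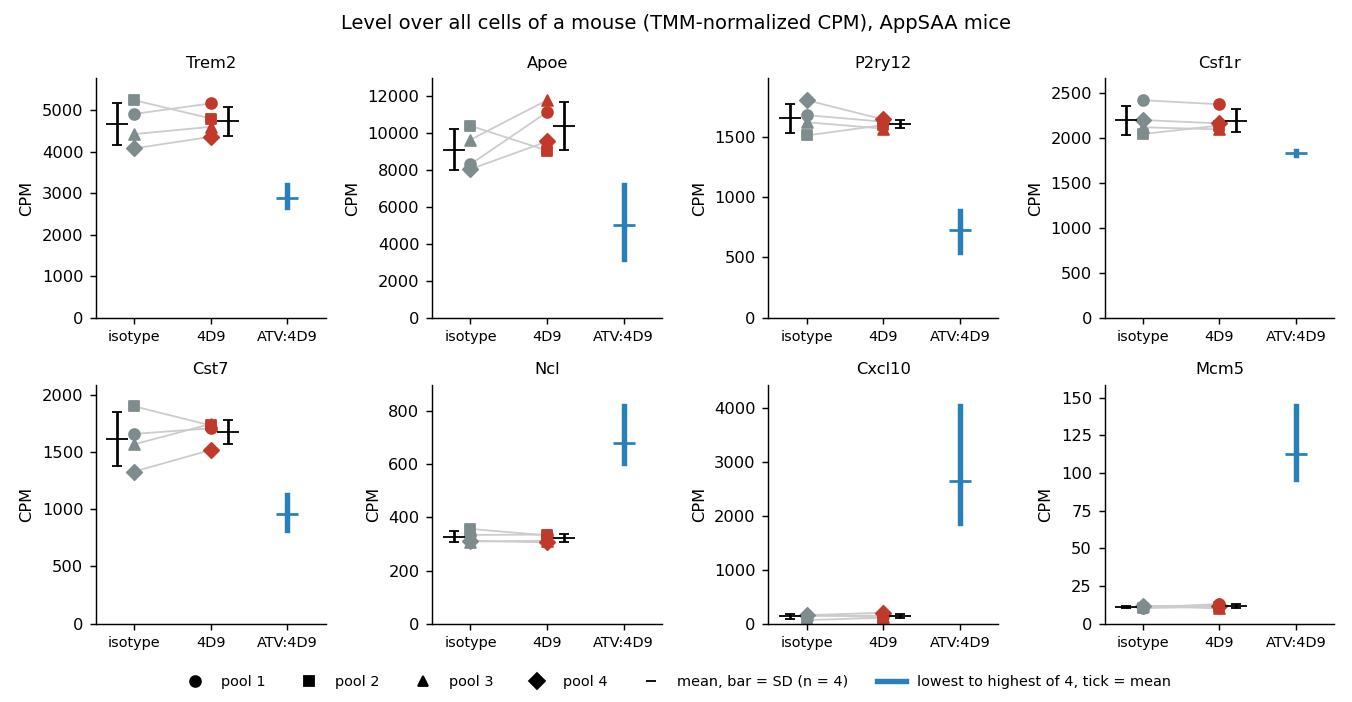
Each panel shows 1 gene, with TMM-normalized CPM over all cells of a mouse on the y axis and the 3 AppSAA groups on the x axis. Points are single mice, joined by pool, with the mean and SD of 4 mice beside them. The blue bar runs from the lowest to the highest ATV:4D9 mouse. The 4D9 points overlap the isotype points in all 8 genes, while the ATV:4D9 mice lie outside both, for Trem2 at 2676 to 3206 CPM.

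Genes of growth and metabolism did not pass either. Mcm5, a helicase subunit loaded before DNA replication, was at 13.1, 11.2, 10.1 and 12.1 CPM with 4D9 and at 10.5, 10.39, 12.02 and 11.7 CPM with the isotype. Its log2 fold change was 0.036 (interval -0.16 to 0.23), and 24 genes of S phase had a median of -0.013, with Hells, a chromatin remodeler, at -0.11. In cluster 2 of the authors' clustering, whose leading genes include Mcm genes, all 24 were below 0 with a median of -0.25, where 49.0% of all genes were above 0. There 0 were called and 4 had an unadjusted p under 0.05 (5.47% of all genes), and the median within pools was -0.33, -0.55, 0.018 and -0.37. All 22 mitosis genes were above 0, with a median of 0.30, 0 called and 1 at an unadjusted p under 0.05. In cluster 4, led by Mki67 and Top2a, 14 of the 22 were above 0 with a median of 0.031, and that cluster held 1.27% of the cells with 4D9 and 0.949% with the isotype, higher in 3 of 4 pools, a difference that did not pass and whose part in the all-cell values was not tested. Over all cells the median difference of these genes within pools was -0.22, 0.65, 0.12 and 0.25 in pools 1 to 4, so pool 1 went the other way. Mki67, a marker of dividing cells, was 12.5, 26.3, 20.5 and 20.9 CPM with 4D9 and 14.8, 15.0, 19.1 and 15.4 CPM with the isotype (log2 fold change 0.33 ± 0.18 SE, unadjusted p 0.0852, adjusted p 0.9999 in edgeR). Top2a, a topoisomerase of the same phase, had 0.25 ± 0.16 (SE). The glycolytic enzyme Ldha had a log2 fold change of 0.048, the nucleolar proteins Ncl and Nop56 had -0.029 and -0.047, and the immediate early gene Fos had -0.026, each with an interval that included 0. The cytokine genes Ccl3, Ccl4 and Il1b had 0.026, 0.034 and 0.10.

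In all, 24 lists of genes by role held 427 tested genes, of which 0 were called over all cells and 8 had an unadjusted p under 0.05. The median log2 fold change of a list lay within 0.1 of 0 for 22 of the 24 lists, the others being mitosis (0.30) and the interferon response (-0.19). The mitosis median was 0.095 without the 4D9 mouse of pool 2 and otherwise 0.28 to 0.43 with 1 mouse left out. The interferon median was -0.080 without the isotype mouse of pool 3, -0.11 without that of pool 2, -0.12 without the 4D9 mouse of pool 3 and -0.28 without the isotype mouse of pool 1. The lists not yet named had medians of 0.052 (19 glycolysis genes), 0.018 (40 nuclear genes of oxidative phosphorylation), -0.0066 (13 mitochondrially encoded genes), 0.0051 (14 citric acid cycle genes), 0.0013 (16 genes of fatty acid oxidation) and -0.057 (20 genes of cholesterol synthesis). Those of lipid transport and storage (-0.0076, 18 genes), nucleolar and Myc-linked genes (-0.031, 22 genes), TNF and NF-kB (0.021, 16 genes), immediate early genes (-0.013, 19 genes) and chemokines and cytokines (0.026, 23 genes) were also close to the median of all genes. So were the colony-stimulating factor axis (0.012, 8 genes), complement and Fc receptors (-0.00030, 15 genes), the lysosome (0.012, 23 genes) and MHC class I (-0.012, 8 genes). MHC class II (-0.073, 7 genes) differed between pools, with medians of 0.62, -0.19, -0.74 and -0.0011, and ran from -0.30 without the 4D9 mouse of pool 1 to 0.13 without the isotype mouse of pool 3.

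The genes with the smallest p-values over all cells, none of which passed the adjusted test, had small fold changes with 1 exception. Those higher with 4D9 included Lpgat1 (log2 fold change 0.12), Haus8 (0.19), the long noncoding RNA AY036118 (0.28) and Xbp1 (0.13). Each of these 4 was higher in 4 of 4 pools, as were 5.43% of all genes tested. AY036118 ran from 0.13 to 0.34 with 1 mouse left out. Those lower with 4D9 were Uhrf1bp1 (-0.17), Trim14 (-0.23), Cbll1 (-0.14), Mettl6 (-0.12) and Rnf121 (-0.996). The first 4 of these were lower in 4 of 4 pools, as were 5.30% of all genes tested. Rnf121, a membrane-bound ubiquitin ligase, stood at separate levels. The isotype mice were at 21.2, 72.3, 18.9 and 72.1 CPM, and the 4D9 mice were at 24.9, 20.9, 19.6 and 19.6 CPM. The isotype mice of pools 2 and 4 were high and the other 6 mice low, and the ATV:4D9 mice ranged from 31.2 to 66.6 CPM. Among genes with at least 10 CPM, Tpm3-rs7, a retrogene whose copies can share reads, was the only gene with an absolute log2 fold change over 1 (1.24, interval -0.28 to 2.75).

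The response of WT mice to ATV:4D9, which binds both Trem2 and the transferrin receptor, gave a list of genes on which 4D9 could be read. In WT mice ATV:4D9 was compared with the isotype, and the 100 genes it raised most and the 100 it lowered most were listed. The WT mice enter the 4D9 comparison through the shared estimate of spread and the pool terms. Of the 100 raised genes 0 were called in 4D9 against isotype. Their log2 fold changes ran from -0.19 to 0.41 with a median of 0.083, and 73 were above 0. Leaving out 1 mouse at a time, the median ran from 0.010 without the 4D9 mouse of pool 4 to 0.13 without that of pool 1. The median difference within pools was 0.0058, 0.14, -0.056 and 0.16. In cluster 2, led by Nes and Mcm genes and so formed in part on genes of this kind, the list went the other way, with 74 of 95 tested genes below 0, a median of -0.19 and 0 called. In AppSAA mice given ATV:4D9 the same 100 genes had a median of 2.95 over the isotype, and all 100 were called, as were 70.1% of all genes tested in that comparison. The 2 AppSAA comparisons share their isotype mice. Hells stood at 5.10, 5.45, 4.39 and 6.93 CPM with 4D9, at 6.39, 5.27, 5.89 and 6.096 CPM with the isotype, and at 82.4 to 111 CPM with ATV:4D9. Dtl, Ung, Exo1 and Ccne1, all genes of replication or its repair, had log2 fold changes with 4D9 between -0.049 and 0.089.

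Of the 100 genes lowered in WT mice 0 were called, and their median with 4D9 was -0.0065, against -1.09 with ATV:4D9 in AppSAA mice, where 98 were called, beside the 70.1% of all genes. Kdm5b, a histone demethylase, was at 28.6 to 31.1 CPM with 4D9, at 27.7 to 29.7 CPM with the isotype and at 6.30 to 11.9 CPM with ATV:4D9. Tcp11l2 (0.071) and Fcrl1 (0.22) also lay within their intervals of 0. This list is headed by Xist and Tsix, which separate the 1 female WT isotype mouse from the rest.

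**Figure D2:**
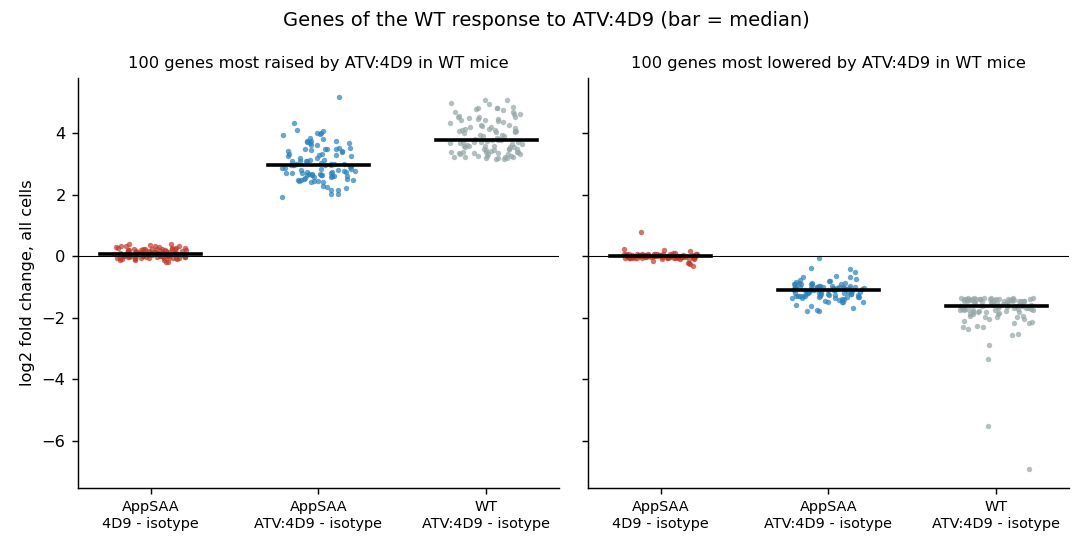
The y axis is the log2 fold change over all cells and each point is a gene, for the 100 genes that ATV:4D9 raised most (left) and lowered most (right) in WT mice. The 3 columns are 4D9 against isotype and ATV:4D9 against isotype in AppSAA mice, and ATV:4D9 against isotype in WT mice, with black bars for medians. The medians of the first column are 0.083 and -0.0065, and those of the second are 2.95 and -1.09.

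Put directly against each other in AppSAA mice, ATV:4D9 and 4D9 differed in 9850 of 14207 genes (69.3% called), 4837 higher and 5013 lower with ATV:4D9. These 2 antibodies differ by the transport vehicle and, in the annotation, by their Fc mutations (huIgG1LALA with ATV:4D9). They also differ in the brain concentration that the paper reports after the same dose. These differences cannot be told apart here. Trem2 was lower with ATV:4D9 by a log2 difference of -0.72 ± 0.058 (SE), adjusted p 4.01e-09 in edgeR, and P2ry12 by -1.16 ± 0.099 (adjusted p 8.7e-09). Cxcl10, a chemokine induced by interferon, was higher by 4.18 ± 0.18 (adjusted p 1.16e-12) and Mcm5 by 3.27 ± 0.088 (adjusted p 2.3e-15). Tfrc was higher by 1.89 ± 0.097 (adjusted p 9.94e-12). Plcg2 (0.016, adjusted p 0.707) and Fos (0.021, adjusted p 0.878) did not pass. The median absolute log2 fold change over genes with at least 10 CPM was 0.30 here, and 470 such genes changed by over 1 on the log2 scale. The 2 groups differed in composition. Cluster 0 of the authors' clustering held a mean of 30.4% of the cells with 4D9 and 2.52% with ATV:4D9, and cluster 4 held 1.27% and 22.4%. Within clusters the calls ran from 536 of 11897 genes in cluster 0 to 3232 of 11584 in cluster 4. The part of composition in the all-cell differences was not tested.

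Chaperones and proteins of the endoplasmic reticulum stress response were, like the mitosis genes, on 1 side of 0. All 18 members were above 0 in 4D9 against isotype, 0 were called and 2 had an unadjusted p under 0.05. The median log2 fold change was 0.10, and within pools it was 0.19, 0.083, 0.099 and 0.063. Hspa8, a constitutive chaperone, was at 1420, 1198, 1092 and 1105 CPM with 4D9 and at 1172, 1064, 1011 and 1060 CPM with the isotype, above its isotype partner in every pool (log2 fold change 0.15 ± 0.066 SE, unadjusted p 0.0324, adjusted p 0.9999 in edgeR). Xbp1, a transcription factor of the unfolded protein response, was at 182, 146, 155 and 142 CPM against 160, 139, 139 and 132 CPM (0.13 ± 0.046, unadjusted p 0.0106, adjusted p 0.9999 in edgeR). The groups overlapped for both genes. Hspa5, the chaperone BiP, had 1193, 933, 940 and 754 CPM with 4D9 and 986, 880, 756 and 763 CPM with the isotype (0.16, interval -0.0096 to 0.34). In 7 of the 18 genes the 4D9 mouse was higher in 4 of 4 pools, as it was in 5.43% of all genes tested. Within clusters 0 and 3 all 18 members were again above 0, with medians of 0.13 and 0.15, and 0 were called, with 8 and 6 at an unadjusted p under 0.05. Of all genes tested in these clusters 50.6% and 51.5% were above 0, and 3.40% and 2.62% had an unadjusted p under 0.05. In clusters 1, 2, 4 and 5 the numbers above 0 were 16, 14, 13 and 15. In AppSAA mice ATV:4D9 against 4D9 gave a median of 0.74 for the list, 13 genes higher and 2 lower, in a comparison that called 69.3% of all genes.

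The 250 bases before the start of Hspa5 are shown because Hspa5 is a standard reporter of endoplasmic reticulum stress. The capitals mark the only match to the endoplasmic reticulum stress element (CCAAT and CCACG with any 9 bases between) on either strand, 65 to 47 bases before the start, which 0.113% of 32851 promoter windows of the same length hold. Of the 18 genes 15 had a promoter in the RefSeq table (GRCm38.p6), and 3 of those (Calr, Hsp90b1 and Hspa5) held the element. The Hspa5 window is chr2:34771840-34772089, plus strand, printed 5′ to 3′.
Hspa5: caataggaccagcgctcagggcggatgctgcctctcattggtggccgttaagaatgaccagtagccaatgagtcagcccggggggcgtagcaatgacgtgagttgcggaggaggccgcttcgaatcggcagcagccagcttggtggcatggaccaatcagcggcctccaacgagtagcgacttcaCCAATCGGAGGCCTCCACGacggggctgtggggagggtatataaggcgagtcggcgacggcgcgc

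The authors' clustering at the coarser resolution divides the cells into 6 clusters, which carry no names. By their leading genes over the 8 mice, cluster 1 (38.7% of the cells) was high in Spp1, Fabp5, Gpnmb and Cst7, cluster 5 (2.16%) in Ifit3, Ifit2, Isg15 and Rsad2, and cluster 4 (1.105%) in Mki67 and Top2a. Cluster 2 (2.42%) was led by Nes and the Mcm genes, cluster 3 (24.96%) by Klf2, Jun and Egr1, and cluster 0 (30.7%) by Bank1, Ecscr and Crybb1. The median UMIs per cell ran from 7217 in cluster 0 to 19842 in cluster 4.

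No cluster share passed the test, which a single changed cluster could not have done. Cluster 5 held 1.35%, 1.31%, 1.46% and 1.90% of the cells of the 4D9 mice and 1.33%, 2.73%, 3.80% and 2.07% of the isotype mice. The isotype mice of pools 2 and 3 were high, while in pool 1 the groups were level. At the finer resolution of the authors' clustering, the cluster of which 85.7% of the cells lie in cluster 5 was lower with 4D9 in 4 of 4 pools, by 0.0064 points in pool 1 and a mean of 1.07 percentage points (exact permutation p 0.0857, adjusted 0.309). For cluster 5 of the coarser resolution the means were 1.504% ± 0.271 with 4D9 and 2.48% ± 1.05 with the isotype (SD, n = 4). The difference was -0.977 percentage points with a two-sided exact permutation p of 0.114 (0.514 after adjustment over 6 clusters). Cluster 4 held 0.947%, 1.36%, 1.098% and 1.65% of the cells with 4D9 and 0.779%, 0.840%, 1.21% and 0.969% with the isotype, higher in 3 of 4 pools (exact permutation p 0.171, adjusted 0.514). Of the finer clusters, 1 with 99.6% of its cells in cluster 4 was higher with 4D9 by 0.278 percentage points, in 3 of 4 pools. Another with 86.0% in cluster 4 was lower by 0.0451 points, in 3 of 4 pools (exact permutation p 0.171, adjusted 0.309 for each). The other 4 clusters of the coarser resolution had adjusted exact permutation p-values of 0.994 to 1.0. With 4 mice against 4 the smallest p this test allows is 0.0286, and a single cluster at that p would have an adjusted p of 0.171 over the 6 clusters. The 95% interval of the mean within-pool difference was wide for the large clusters, -10.1 to 12.4 percentage points for cluster 1 and -7.57 to 6.77 for cluster 0.

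**Figure D3:**
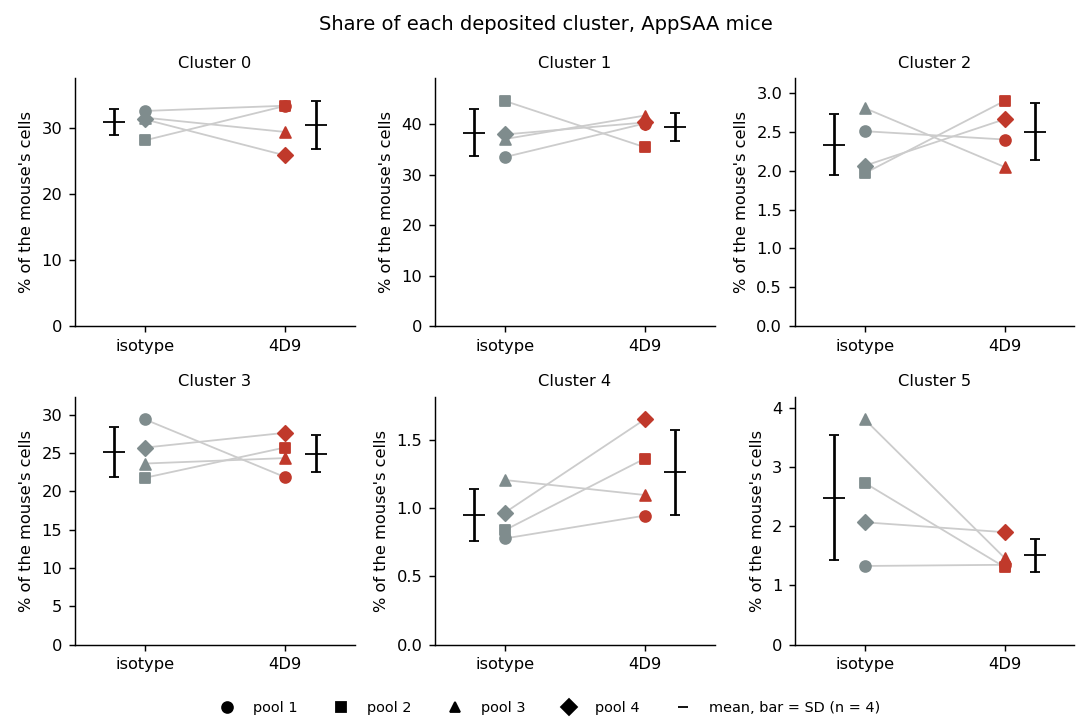
The y axis is the percentage of a mouse's cells in each of 6 deposited clusters, starting at 0, for isotype and 4D9 AppSAA mice. Points are mice, joined by pool, and bars give the mean and SD of 4 mice. The points overlap in every cluster, with cluster 5 at 1.31% to 1.90% (4D9) and 1.33% to 3.80% (isotype).

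RNA content per cell did not pass a test. The median UMIs per cell were 8293, 9023, 10097 and 11553 with 4D9 and 8445, 9194, 9884 and 9832 with the isotype. The difference of 403 ± 896 (SD of the 4 within-pool differences) was 1720 in pool 4 and -171 to 214 in the others, and the exact permutation p was 0.657. The median number of genes per cell differed by 39.8 and the median mitochondrial percentage by 0.0090 percentage points (exact permutation p 0.971). Each adjusted p was 0.971.

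Within single clusters 5 genes passed the test, 2 in cluster 0, 1 in cluster 1 and 2 in cluster 5. They are 0.0168%, 0.00767% and 0.0183% of the genes tested there, and clusters 2, 3 and 4 gave 0 (0% called). At an unadjusted p under 0.05 those 3 clusters had 536, 309 and 601 genes in edgeR, and DESeq2 and limma-voom also called 0 in each of them. All 8 mice had at least 26 cells in every cluster.

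**Figure D4:**
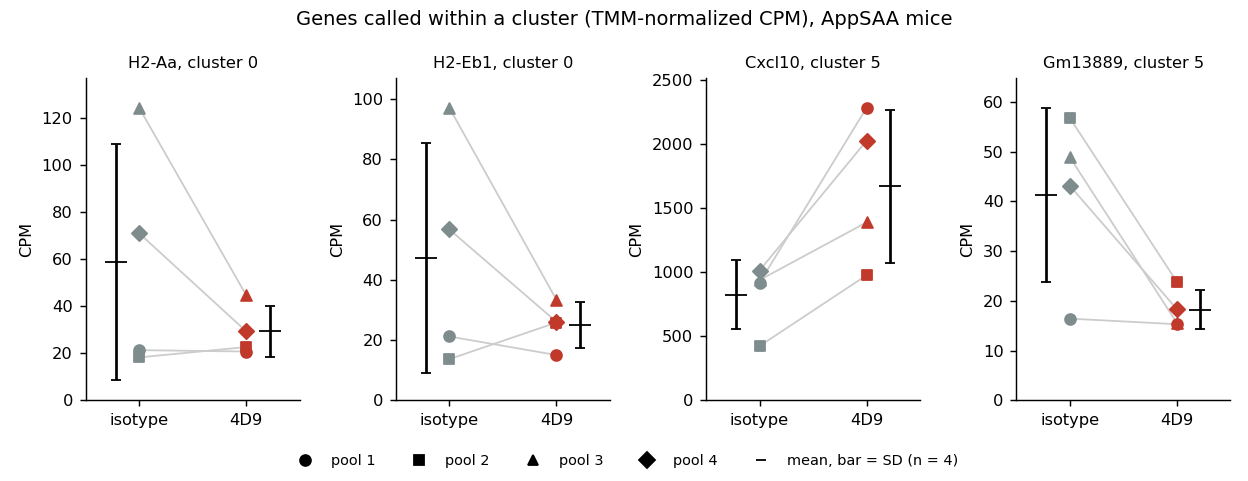
Each panel shows 1 gene in 1 cluster, with TMM-normalized CPM per mouse on the y axis, points joined by pool, and the mean and SD of 4 mice. The isotype mice of pools 3 and 4 stand highest for H2-Aa and H2-Eb1, and both genes are higher with 4D9 in pool 2. Cxcl10 is higher with 4D9 in 4 of 4 pools, and Gm13889 is close in pool 1. Trap1a, called in cluster 1, is not drawn.

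Cxcl10 rose in cluster 5, the interferon gene cluster. It stood at 2282, 975.4, 1388 and 2025 CPM in the 4D9 mice of pools 1 to 4 and at 916, 423, 937 and 1012 CPM in the isotype mice. Every 4D9 mouse was above the isotype mouse of its pool, and 3 of the 4 were above all isotype mice. The log2 fold change was 0.99 ± 0.15 (SE), with a 95% interval of 0.68 to 1.30 and an adjusted p of 0.00571 in edgeR. In the ATV:4D9 mice the level in this cluster was 4267 to 7950 CPM, higher than with 4D9 by 1.73 ± 0.15 on the log2 scale (adjusted p 4.11e-09 in edgeR, where 20.5% of genes were called). The authors clustered the same cells by their expression, so which cells fell into cluster 5 is not independent of interferon-induced genes. The call was lost without the pool block (log2 fold change 1.02, adjusted p 1.0), without the 4D9 mouse of pool 4 (0.91, adjusted p 0.148) and with only sums of at least 50 cells (1.00, adjusted p 0.0700). The 4D9 sums of cluster 5 came from 37, 46, 60 and 62 cells and those of the isotype from 46, 104, 233 and 113.

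The 10 highest cells of each mouse carried most of this transcript. The 10 cells with the most Cxcl10 UMIs held 97.1%, 96.3%, 93.2% and 88.6% of the UMIs of cluster 5 in the 4D9 mice and 94.8%, 90.3%, 71.3% and 82.8% in the isotype mice. These are 10 of 37, 46, 60 and 62 cells with 4D9 and of 46, 104, 233 and 113 with the isotype. The groups cannot be compared by these shares. The highest cell had 330 UMIs with 4D9 and 388 with the isotype. After thinning every cell to 3000 UMIs, 40.5%, 30.4%, 35.0% and 45.9% of the cells held a Cxcl10 UMI with 4D9 and 34.8%, 19.6%, 33.8% and 45.5% with the isotype. Unthinned the shares were 54.3% to 80.6% and 38.5% to 72.6%, in cells with a median of 10008 to 15343 and 8774 to 11142 UMIs. In cluster 0, which is not led by interferon genes, thinned shares were 11.9% to 27.9% with 4D9 and 13.05% to 31.6% with the isotype, at medians of 6504 to 7950 UMIs. No cell type that should lack the gene was present as a baseline. In cluster 0 Cxcl10 had a log2 fold change of -0.059 (interval -0.18 to 0.065), in cluster 1 of 0.034 and in cluster 3 of -0.18. In cluster 4 it had 0.64, the highest of the interferon response genes there. Cxcl10 passed the test in none of these, and no gene passed in cluster 2. Over all cells the log2 fold change of Cxcl10 was 0.15 (interval -0.20 to 0.49). Border macrophage markers in cluster 5 summed to 15.5 to 106 CPM with 4D9 and 9.61 to 55.9 CPM with the isotype, and without the cells that held 5 or more such UMIs Cxcl10 kept its call. Monocyte markers there summed to 15.5 to 44.9 CPM with 4D9 and 4.81 to 46.6 CPM with the isotype (median log2 fold change 0.76 over 4 tested genes, 0 called). Neutrophil markers summed to 7.74 to 17.2 CPM and 0 to 13.9 CPM (0.52 over 2 tested genes, higher in 4 of 4 pools, 0 called). The part of these cells in the Cxcl10 call was not tested.

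The Cxcl10 promoter is shown because Cxcl10 was the only gene with at least 10 CPM called higher with 4D9 in any of the 6 clusters. The capitals mark the interferon-stimulated response element (ISRE, GAAA and GAAA with any 2 bases between), 213 to 204 bases before the start, and the NF-kB site (GGGA and TTCC with any 2 bases between), 159 to 150 bases before it. Both were searched on both strands and do not overlap. They occur in 2.98% and 1.21% of 32851 windows. Of 15 interferon response genes with a promoter in the table, 9 held the ISRE. The Y box, described under MHC class II, also matched on the other strand at 54 to 47 bases before the start and is not capitalised. The window is chr5:92348890-92349139 in GRCm38.p6 (RefSeq), minus strand.
Cxcl10: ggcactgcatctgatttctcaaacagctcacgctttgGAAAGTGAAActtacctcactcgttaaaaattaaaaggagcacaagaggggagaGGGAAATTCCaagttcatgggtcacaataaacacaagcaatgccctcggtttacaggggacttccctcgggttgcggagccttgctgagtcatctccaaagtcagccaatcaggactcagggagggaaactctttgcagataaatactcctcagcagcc

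Interferon response genes did not pass the test over all cells, and Cxcl10 was the 1 member that passed in cluster 5. Over all cells 19 of 21 were below 0 with a median of -0.19, 0 were called, and 1 had an unadjusted p under 0.05. Ifit3, an antiviral effector, read 36.9, 20.5, 23.7 and 27.8 CPM with 4D9 and 28.8, 35.8, 35.8 and 30.3 CPM with the isotype (log2 fold change -0.32 ± 0.17 SE, adjusted p 0.9999 in edgeR). Isg15, a ubiquitin-like modifier, had -0.21 ± 0.16. Within pools the median of the list was 0.079, -0.37, -0.52 and 0.11. The share of cluster 5 in the 4D9 mouse minus that in the isotype mouse was 0.0197, -1.42, -2.34 and -0.167 percentage points in the same pools, and its part in the result was not tested. Cluster 5 is itself led by genes of this list, so its cells were selected on the genes compared, and the values within it are given as a description. Inside cluster 5 19 of the 21 genes were above 0 with a median of 0.18, against 48.8% of all genes tested there. Cxcl10 was called, and 7 genes including it had an unadjusted p under 0.05, 6 higher and 1 lower with 4D9, beside 4.69% of all genes tested there. In cluster 1 19 of 21 were below 0 (median -0.13), in cluster 4 18 (-0.43), in cluster 0 15 (-0.066) and in cluster 3 13 (-0.064), while in cluster 2 15 were above 0 (0.060), with 0 called in each. All 21 genes were higher with ATV:4D9 than with 4D9 over all cells, with a median of 2.72, where 69.3% of all genes were called.

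**Figure D5:**
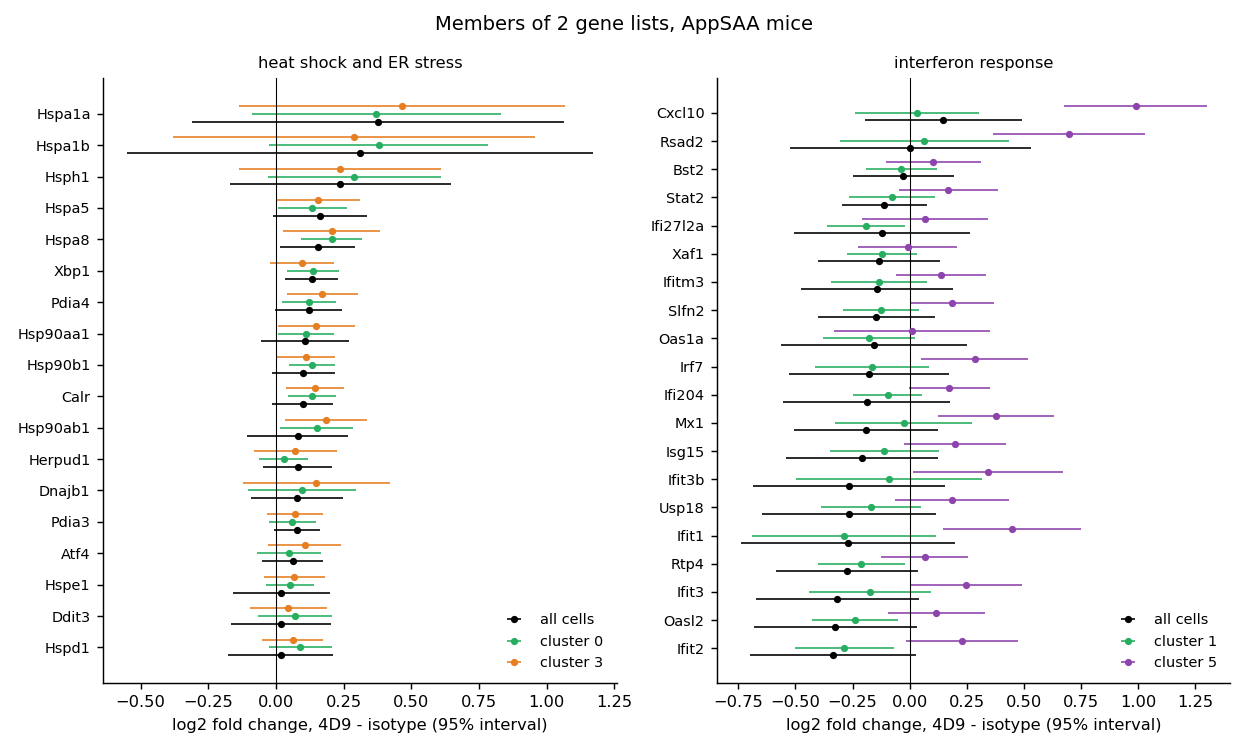
Points are log2 fold changes of 4D9 over isotype and lines their 95% intervals, with 1 gene per row. Left, 18 heat shock and endoplasmic reticulum stress genes over all cells and in clusters 0 and 3, all above 0. Right, 20 of the 21 interferon response genes over all cells and in clusters 1 and 5, of which 18 lie below 0 over all cells and 19 above 0 in cluster 5. The member not drawn lies below 0 in both.

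Gm13889, a gene of unknown function, fell in cluster 5. It was at 15.3, 23.8, 15.6 and 18.3 CPM with 4D9 and at 16.4, 56.8, 48.9 and 43.2 CPM with the isotype. The isotype mouse of pool 1 was as low as the 4D9 mice and the groups overlapped. The log2 fold change was -1.28 ± 0.22 (SE), adjusted p 0.0135 in edgeR, and the call was lost in 9 of 16 alternatives, at log2 fold changes of -1.44 to -1.15. The gene overlaps Gm27027 on the same strand in GENCODE vM21, so reads may be shared between them. With ATV:4D9 it was at 3.86 to 9.72 CPM.

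H2-Aa and H2-Eb1, which encode the alpha chain of I-A and the beta chain of I-E, both MHC class II molecules, fell in cluster 0. C57BL/6 mice make no I-E alpha chain, so the H2-Eb1 values are those of its RNA. H2-Aa stood at 20.7, 22.6, 44.7 and 29.3 CPM with 4D9 and at 21.3, 18.2, 124 and 71.1 CPM with the isotype. The isotype mice of pools 3 and 4 were highest, the 4D9 mouse of pool 3 came next, and the groups overlapped. The log2 fold change was -0.93 ± 0.14 (SE), adjusted p 0.00142 in edgeR. With every cell thinned to 3000 UMIs, 5.028%, 4.704%, 10.26% and 8.503% of the cells held an H2-Aa UMI with 4D9. The isotype mice had 4.174%, 5.048%, 16.49% and 10.06%, so this share was higher in pools 3 and 4 of both groups. H2-Eb1 read 15.0, 25.8, 33.3 and 26.1 CPM with 4D9 and 21.2, 13.6, 97.2 and 56.7 CPM with the isotype, with the same 2 isotype mice high and the 4D9 mouse above the isotype mouse in pool 2 (-0.86 ± 0.16, adjusted p 0.0336 in edgeR). H2-Ab1, the partner chain of H2-Aa, and Cd74, the invariant chain, had -0.63 (adjusted p 0.360 in edgeR) and -0.55 (adjusted p 0.9999). Both were called in some alternatives, H2-Ab1 in 4 of 16 and Cd74 in 3 of 16. With 1 mouse left out their adjusted p went down to 0.000126 and 0.00531 in edgeR. H2-DMa and H2-DMb1, which load peptides, had 0.061 and 0.011.

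These calls rested on few mice. Without the isotype mouse of pool 3 the log2 fold change of H2-Aa was -0.55 (adjusted p 0.645), without the 4D9 mouse of pool 3 -0.72 (0.887) and without the 4D9 mouse of pool 4 -0.81 (0.0693), and neither DESeq2, limma-voom, the fit without the pool block nor the fit of the 8 mice alone called either gene. H2-Eb1 lost its call in 10 of 16 alternatives, among them without the 4D9 mouse of pool 3 (-0.55, adjusted p 0.9999) or pool 4 (-0.80, 0.349) and without the isotype mouse of pool 3 (-0.49, 1.0) or pool 4 (-0.73, 0.513). In the isotype mice of pools 3 and 4 single cells held up to 94 UMIs of H2-Aa, and the 10 highest cells of 1930 and 1709 held 27.4% and 43.9% of its UMIs. In these mice 581 and 342 cells held an H2-Aa UMI, and the part of the highest cells in the calls was not tested. In the 4D9 mice of those pools the highest cells held 21 and 12 UMIs, and the 10 highest of 1203 and 843 cells held 22.52% and 20.83%. In pools 1 and 2 the 10 highest cells held 35.77% and 38.34% with 4D9 and 37.5% and 17.99% with the isotype. Shares above 27.4% thus also occurred in mice with low H2-Aa. The shares come from different numbers of cells and UMIs, so the groups cannot be compared by them. Border macrophage markers summed to 11.2 to 21.7 CPM in the isotype mice and 11.7 to 25.3 CPM in the 4D9 mice of this cluster. Without cells with 5 or more of those UMIs H2-Aa kept its call and H2-Eb1 had an adjusted p of 0.0802. Over all cells H2-Aa was at 236, 151, 231 and 145 CPM with 4D9 and at 133, 179, 444 and 135 CPM with the isotype, a log2 fold change of -0.073 (interval -0.54 to 0.40). In cluster 4, 4 of the 6 class II genes tested were below 0 and 2 above. There H2-Aa, H2-Ab1 and H2-Eb1 were lower with 4D9 in 4 of 4 pools (log2 fold changes -1.18, -0.99 and -1.36), as were 5.70% of all genes tested. None of them passed the test. Those sums came from 26 to 74 cells, and border macrophage markers in them summed to 15.9 to 110 CPM with 4D9 and 45.9 to 206 CPM with the isotype. Their part in the difference was not tested.

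Both promoters are shown because these genes fell together. Capitals mark the letters CTGATTGG, a Y box, known from MHC class II promoters among others, at 51 to 44 bases before the start of H2-Aa and 62 to 55 bases before that of H2-Eb1, searched on both strands. It occurs in 3.83% of 32851 windows. Of 4 MHC class II genes with a promoter in the table, these 2 held it, as did 8 of 15 promoters of the heat shock and endoplasmic reticulum stress list, Hspa5 among them (98 to 91 bases before its start, other strand, not capitalised above). The windows are chr17:34287824-34288073 (minus strand) and chr17:34305617-34305866 (plus strand) in GRCm38.p6, from RefSeq.
H2-Aa: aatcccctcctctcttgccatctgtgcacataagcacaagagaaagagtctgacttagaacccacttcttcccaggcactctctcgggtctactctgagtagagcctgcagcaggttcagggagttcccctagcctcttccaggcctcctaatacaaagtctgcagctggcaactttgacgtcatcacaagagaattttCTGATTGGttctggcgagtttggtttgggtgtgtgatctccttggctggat
H2-Eb1: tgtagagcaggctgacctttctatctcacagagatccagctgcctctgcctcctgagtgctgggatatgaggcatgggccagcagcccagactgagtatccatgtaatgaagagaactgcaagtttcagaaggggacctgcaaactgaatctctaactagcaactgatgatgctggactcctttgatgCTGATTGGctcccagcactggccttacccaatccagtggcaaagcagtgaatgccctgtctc

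Trap1a, which encodes the tumour rejection antigen P1A, was called in cluster 1 on 1 mouse. Its 265 UMIs there came from 19 of 1317 cells of the 4D9 mouse of pool 4 (10.7 CPM), with 78.9% in 10 cells and 53 in the highest, and the other 7 mice had 0. This gene lies below the level at which genes are named here and was singled out after its values were seen. No fold is given, since it would rest on that mouse.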

How the data were processed

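Reads of sorted brain myeloid cells were mapped by the authors to mm10 with Cell Ranger 6.1.1 (submitters' processing notes). CellPlex tags gave each cell its mouse, and clusters come from the authors' Seurat integration. The deposited mitochondrial percent is the authors' share of a cell's UMIs from mitochondrial genes. The deposited matrix holds UMI counts per gene and cell without normalization. Its totals, genes per cell and mitochondrial percentages match the annotation in all 74758 cells. Every deposited cell was kept and no doublet caller was run. The paper's main text and reporting summary do not say whether doublets were removed before deposit. For processing details the main text refers to its Supplementary Methods. Counts were summed per mouse over all cells and per cluster (at least 20 cells) and fitted with group and pool terms, over 20 mice for all cells and clusters 0, 2 and 3 and over 16, 16 and 17 mice for clusters 1, 4 and 5, where the other mice, none of them 4D9 or isotype AppSAA mice, had too few cells, in edgeR 4.0.16 (filterByExpr, TMM, quasi-likelihood test, R 4.3.3), with Benjamini-Hochberg adjustment over all genes tested and calls at 0.05. TMM sets each fold change against the bulk of genes. DESeq2 1.42.0 and limma-voom (limma 3.58.1) were alternatives. Intervals come from the same fit. Shares and per-cell medians were compared by two-sided exact permutation over the 8 mice, without regard to pool (SciPy 1.17.1). A sign-flip test of the within-pool differences was an alternative.

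The numbers of the pools pair the mice, since each pool held 1 mouse per group. Deviations from the group means correlated within all 4 pools (0.71, 0.51, 0.78 and 0.80 over 7872 genes). They also correlated between pools 1 and 2 (0.36 and 0.45) and between pools 3 and 4 (0.43 and 0.52). Between pools 1 and 2 on 1 side and pools 3 and 4 on the other they were negative (-0.32 to -0.69). The correlations therefore do not show the pairing alone. The labels do not say more of how the mice were housed or processed.

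The members, gene lists and named genes were chosen with earlier results of these data known. Named were called genes with at least 10 CPM on average (up to 10 each way over all cells, 5 within a cluster), the 5 smallest p-values each way where fewer than 10 were called, 34 fixed genes, and the 5 largest rises and falls in WT mice. Hmox1, Hspa8, Hspa5 and other members of lists, and Trap1a and Tpm3-rs7, were named after their values were seen. Coordinates are those of GENCODE vM21 (GRCm38), and promoters those of RefSeq (GRCm38.p6). The fits across genes were tested on simulated data. Some genes that the rule or the lists include are not reported here.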

Additional observations from a re-analysis of the deposited data

Results flagged for a closer look

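In 10 of 144 groups of 4 mice examined, 1 mouse stood apart from the other 3 by Dixon's criterion, which chance meets in about 1 in 20 groups. The values given are those of the mouse that stood apart.

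Over all cells, Cst7 was low in the 4D9 mouse of pool 4, at 1518 CPM, and Clec7a was high in the 4D9 mouse of pool 3, at 420.1 CPM. Mki67 was high in the isotype mouse of pool 3, at 19.05 CPM. H2-Aa was high in that same mouse, at 443.9 CPM over all cells.

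Xist was high in both mice of pool 4, at 7.843 CPM with 4D9 and 6.789 CPM with the isotype, and Tsix was high in the isotype mouse of that pool, at 0.5313 CPM. Pool 4 also held the 1 mouse recorded as female. Of the cells of these 2 mice 15 and 11 held 5 or more Xist UMIs, against 0 in their groups in the other pools.

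Trap1a was found in the 4D9 mouse of pool 4, at 7.365 CPM over all cells and 10.69 CPM in cluster 1. Cxcl10 in cluster 5 was low in the isotype mouse of pool 2, at 422.7 CPM.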

How the results depend on the processing

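Over all cells the count of genes called in 4D9 against isotype was 0 in every setting except without the 4D9 mouse of pool 1, which called Trap1a (0 to 1 leaving out 1 mouse at a time). Within clusters, where 2, 1, 0, 0, 0 and 2 genes were called in clusters 0 to 5, the counts moved. Without the replicate block (the pool) clusters 0, 1 and 5 had 0, 0 and 0 calls. With no filter on low counts clusters 0, 1, 3, 4 and 5 had 30, 18, 27, 13 and 30. DESeq2 called 0 in cluster 0, and limma-voom called 0, 0 and 1 in clusters 0, 1 and 5. A fit of only the 8 mice with the block, added after seeing the data, called 0, 0, 8 and 9 in clusters 0, 1, 2 and 4. Sums of at least 50 cells left 1 in cluster 0 and 1 in cluster 5, and could not be run for cluster 4. Leaving out cells with 5 or more border macrophage marker UMIs, also added later, left 1 in cluster 0. Leaving out 1 mouse at a time gave 0 to 6, 0 to 3, 0 to 0, 0 to 1, 0 to 12 and 0 to 2 calls in clusters 0 to 5. The 6 came without the 4D9 mouse of pool 2, as did the 12. The median of the 100 genes lowered in WT mice ran from -0.048 to 0.056 when 1 mouse was left out, and that of the 100 raised genes (0.083) from 0.010 without the 4D9 mouse of pool 4 to 0.13 without the 4D9 mouse of pool 1, with 0.044 and 0.040 without the 4D9 mouse of pool 2 and the isotype mouse of pool 1, and 0.13 without the isotype mouse of pool 3. The causes of these changes were not tested, and no result with a call changed sign. Sums of clusters 4 and 5 came from 26 to 233 cells per mouse.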
